A study of Mus musculus with 9 samples.

Results

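The genes described here were lower in mouse gastrocnemius after 1 day of reloading than in both unloaded and never unloaded muscle, while 10 days of unloading had left them close to their Control level. They were chosen from the measured values. Of 55487 genes in the count table, 15070 had at least 10 counts in at least 2 libraries, and 9759 of these were protein-coding with a mean Control level above 2 on the log2(CPM + 1) scale. CPM are counts per 1000000, and libraries were brought to a common scale with TMM factors (trimmed mean of M-values), a method that assumes that most genes do not change. A gene was kept when its mean log2(CPM + 1) in Reloading lay at least 0.8 below both the Control and the Unloading mean and when the Unloading and Control means differed by no more than 0.3. The rule found 52 genes, which is 0.533% of the 9759, after genes with symbols starting Myh, Myl, Tnn, Kcn or Cacn were set aside. That exclusion removed 1 gene, Tnnt1, the slow skeletal troponin T. With the limits mirrored, 279 genes (2.86%) were gained only on reloading. Since the rule used all 3 group differences, the members' own levels are given as a description and carry no test.

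RNA came from the gastrocnemius, a calf muscle with mainly fast fibres, of male, wild-type C57BL/6 mice per the labels. The 4 Control mice lived in conventional cages, the 2 Unloading mice had spent 10 days with the hindquarters lifted by the tail so that the hind legs carried no weight, and the 3 Reloading mice had gone through the same unloading and then 1 day of normal cage activity. The study's text names the strain of this experiment as C57BL/6J, in its methods the mice of this procedure are female, and the age of the mice is not given in the sources used here. All p-values measure the spread between these mice, and the 2 Unloading libraries share their spread estimate with the other groups. Tissue was sequenced whole, so fewer cells of a type and less RNA per cell cannot be told apart.

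Skeletal muscle adjusts its gene expression to load: disuse shrinks fibres, and the return of weight-bearing stretches and injures them before they regrow. Fast fibres keep high levels of genes for rapid calcium cycling, glycogen use and protein turnover by ubiquitin ligases, and transcription factors of the MEF2 family maintain many genes of the mature fibre. The dystrophin complex ties the contractile apparatus to the membrane and the matrix, and it is known for protecting fibres from the strain of contraction.

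Libraries held between 9252443 and 19612101 counts. The members took 5.02 to 5.70% of them in Control, 5.26 to 5.45% in Unloading and 3.41 to 3.50% in Reloading. These shares mainly describe the mitochondrial genes mt-Co1, mt-Nd5 and mt-Nd6, which held most of the members' counts. Their counts were 324301, 111382 and 27416 in Control 1, and 243389, 93137 and 20489 in Reloading 1. TMM factors were 0.928 to 0.960 in Control and Unloading and 1.11 to 1.13 in Reloading. Libraries of the same group correlated at 0.990 to 0.994 across genes, which are not independent replicates. Control 2 and Reloading 1 contained skin transcripts, with summed keratinocyte markers of up to 291 CPM in Control and up to 132 CPM in Reloading against 2.84 to 2.89 CPM in Unloading. Without these libraries the rule found 54 genes, of which 46 were among the 52.

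The 52 genes were lowered rather than lost. Between 13.7% and 55.8% of the mean Control level remained in Reloading (median 48.5%), and the lowest count of any member in any library was 7. Reloading lay below Control by a median of 0.97 on the log2(CPM + 1) scale (R minus C from -1.74 to -0.83) and below Unloading by the same median (R minus U from -1.64 to -0.81), whereas the median Unloading minus Control difference was 0.02 (-0.28 to 0.29), with 28 of 52 above 0. Over the 9759 comparable genes the medians were -0.01, -0.04 and 0.02. At most 50% of the Control level was left for 30 members, at most 50% of the Unloading level for 34, and both held for 25.

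**Figure D1:**
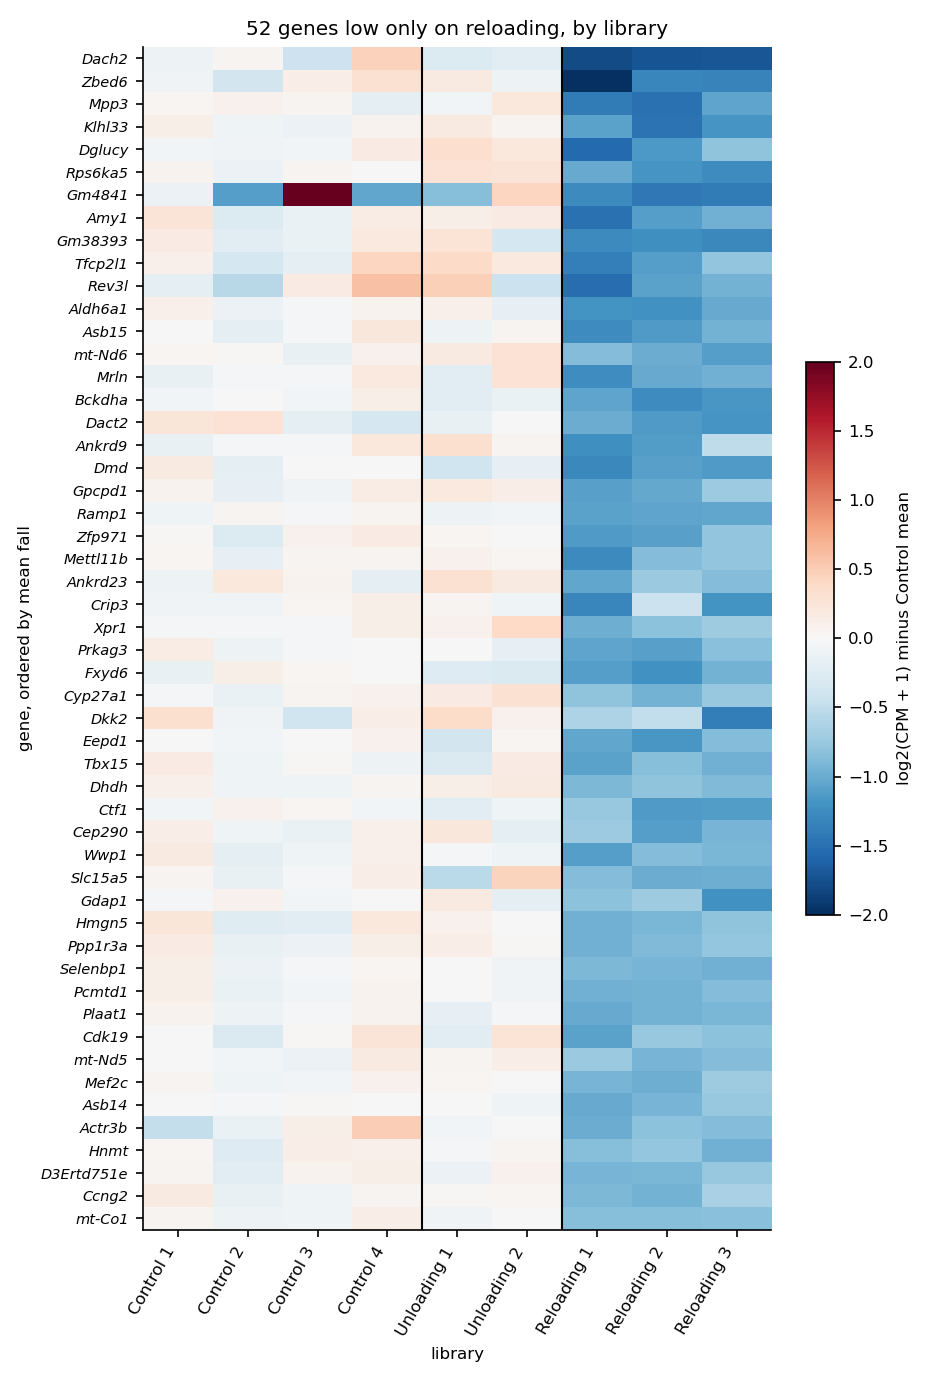
Each row is 1 of the 52 genes and each column 1 library; colour gives log2(CPM + 1) minus the gene's Control mean, with values beyond 2 in either direction drawn at the end of the scale. The 3 Reloading columns are blue in all 52 rows, Gm4841 shows the widest spread within Control, and genes are ordered by their mean fall.

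Relative to the Control means, the median member stood at 0.04, -0.10, -0.04 and 0.10 in Control 1 to 4, at 0.04 and 0.03 in the Unloading libraries and at -1.04, -0.99 and -0.93 in Reloading 1 to 3. All 52 genes were below both the Control mean and the Unloading mean in each Reloading library. The highest Reloading library was below the lowest of the other 6 libraries for 52 of 52 members, as it was for 17.1% of the 14796 genes to which both filters on low counts apply, and the smallest such gap was 0.09 (Dkk2). In edgeR's quasi-likelihood F-test with Benjamini-Hochberg adjustment, 52 members passed as lower in Reloading against Control, where 21.3% of the 14851 tested genes did, and 51 passed as lower against Unloading, where 19.0% did. For Unloading against Control, 0 members passed in edgeR, 8 had an unadjusted p under 0.05 and 1 (mt-Nd6) passed in DESeq2; 9.90% of all tested genes passed, 5.50% as lower and 4.40% as higher. The rule fixed these counts, so nothing is read from them. Replicate spread among members was near that of the comparable genes. The median SD was 0.126 in Control, 0.089 in Unloading and 0.129 in Reloading, compared with 0.114, 0.092 and 0.099.

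**Figure D2:**
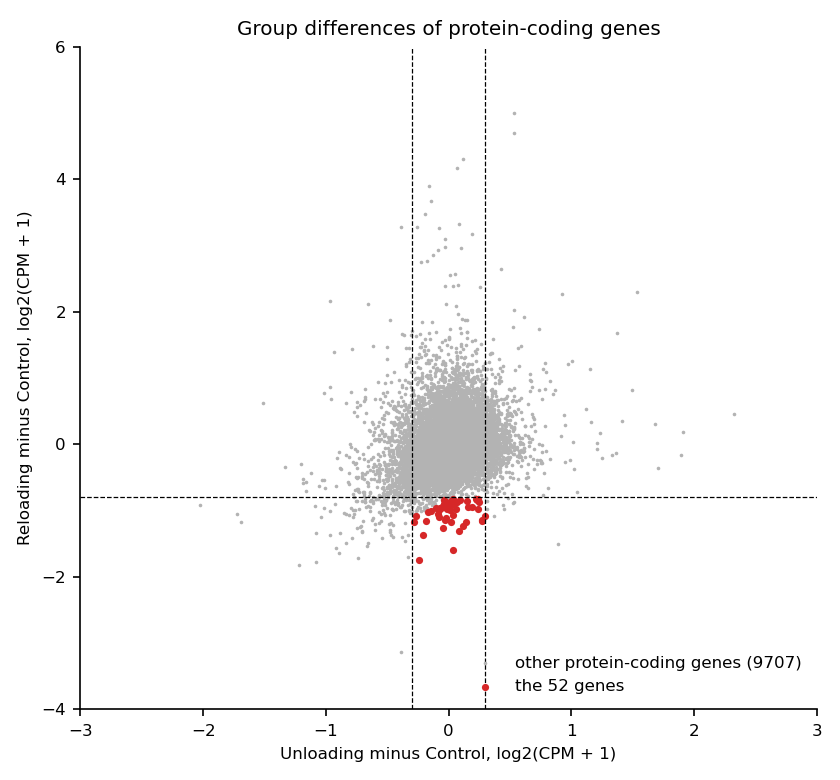
Each point is 1 of the 9759 comparable protein-coding genes, with Unloading minus Control on the horizontal axis and Reloading minus Control on the vertical axis, both in log2(CPM + 1); dashed lines mark the limits of 0.3 and -0.8. The 52 genes, in red, fill the box below -0.8; grey points in that box fell short of the limit against Unloading or belong to the symbol families set aside.

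Promoter windows from RefSeq (GRCm38.p6, 250 bases before to 50 after the start) were found for 36 of the 52 genes. Their median GC content was 54.4%, compared with 61.3% in 7848 comparable genes and 52.8% in all 27025 genes with a window, and they held a median of 9 CpG pairs (21.5 and 7). The letters TATAAA, on either strand, occurred in the windows of 10 members (27.8%), in 8.63% of comparable genes and in 15.7% of all. GGGCGG occurred in 41.7% (71.2% and 38.2%), CCAAT in 58.3% (43.0% and 41.1%) and CACGTG in 2.78% (12.5% and 8.09%). The shares were 16.7% for CAGCTG (17.9% and 18.3%), 5.56% for TGACTCA (4.22% and 5.95%), 8.33% for TGACGT (14.1% and 8.37%), 11.1% for TCAGGTT (3.98% and 4.73%) and 5.56% for AAGGTCA (3.82% and 5.38%). CTATTTA, a core of the MEF2 site, stood in the windows of 2 members (5.56%), Asb14 and Ppp1r3a, compared with 2.32% and 3.36%. It can overlap TTTATA, the reverse of TATAAA, and did so in both genes. A match is a description of letters, not a site of binding. The 150 bases before the start are shown for Ppp1r3a and for Tfcp2l1 and Dkk2, which hold TATAAA within 40 bases of the start. For Asb14 only 30 bases around the letters are shown, since other transcripts of the gene start upstream of them. These genes were chosen after the matches were seen, and capitals mark TATAAA and CTATTTA on either strand.
Ppp1r3a, chr6:14755275-14755424, minus strand: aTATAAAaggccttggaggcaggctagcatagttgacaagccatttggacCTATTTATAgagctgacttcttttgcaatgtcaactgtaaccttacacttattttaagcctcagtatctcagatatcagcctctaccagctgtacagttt
Asb14, chr14:26894569-26894598, plus strand: gtaTTTATAgtaaagCTATTTATAatggtc
Tfcp2l1, chr1:118627795-118627944, plus strand: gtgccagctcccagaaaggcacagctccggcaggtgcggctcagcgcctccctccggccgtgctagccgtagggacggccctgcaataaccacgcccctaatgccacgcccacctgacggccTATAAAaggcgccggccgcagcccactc
Dkk2, chr3:132085142-132085291, plus strand: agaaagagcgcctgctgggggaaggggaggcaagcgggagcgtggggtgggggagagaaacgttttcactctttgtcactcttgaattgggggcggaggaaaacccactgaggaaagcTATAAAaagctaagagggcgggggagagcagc
In Ppp1r3a CTATTTA begins 100 bases before the start and TATAAA 149 bases before it. In Asb14 CTATTTA begins 30 bases before the start, and the reverse of TATAAA occurs at 42 and at 27 bases before it. TATAAA begins 28 bases before the start in Tfcp2l1 and 32 bases before it in Dkk2.

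On the log2(CPM + 1) scale of the rule, the 2 deepest falls from Control were those of transcription regulators, Dach2 and Zbed6; by the percentage of Control left, Gm4841, Gm38393 and Dact2 came between them. By the authors' annotation, 6 members (11.5%) are transcription factors, compared with 738 (7.56%) of the comparable genes. Dach2 (ENSMUSG00000025592, chromosome X, 113297510 to 113836386), a Dachshund-family repressor linked to nerve-dependent gene control in muscle, measured 4.06, 4.64, 3.07 and 6.52 CPM in Control, 3.51 and 3.71 in Unloading and 0.565, 0.651 and 0.663 in Reloading. The Reloading libraries lay together at 13.7% of the Control mean, below every other library. Zbed6 (ENSMUSG00000094410, chromosome 1, 133619940 to 133661318), a transposon-derived repressor of Igf2, measured 32.1, 25.8, 37.0 and 41.8 CPM in Control, 38.3 and 31.3 in Unloading and 6.78, 13.0 and 12.8 in Reloading. Reloading 1 was lowest and the group kept 31.7% of Control, although 43.2% of the Zbed6 exon bases are shared with Zc3h11a on the same strand, so their reads cannot be fully separated. Zc3h11a, a zinc finger protein of mRNA export, changed by -0.86 ± 0.17 (SE, adjusted p = 0.00118) against Unloading in edgeR.

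Mef2c (ENSMUSG00000005583, chromosome 13, 83504034 to 83667080), a MADS-box factor that drives genes of the mature fibre, measured 734, 665, 685 and 755 CPM in Control, 732 and 712 in Unloading and 373, 359 and 433 in Reloading. The Reloading libraries lay below all others, and Unloading fell inside the Control range. Tbx15 (ENSMUSG00000027868, chromosome 3, 99240381 to 99354259), a T-box factor enriched in fast glycolytic fibres, gave 299.9, 253, 273 and 249 CPM in Control, 218 and 300.2 in Unloading and 127, 147 and 137 in Reloading. Here the Unloading libraries spanned the range of Control while all Reloading libraries lay near 50% of it. Tfcp2l1, a grainyhead-like factor, kept 45.1% of its Control level, and the zinc finger gene Zfp971, which belongs to a family of near-identical copies whose reads may be split, kept 40.9%. Among the other MEF2 genes, Mef2a differed by -0.41 ± 0.07 (SE, adjusted p = 1.46e-04) and Mef2d by 0.27 ± 0.07 (SE, adjusted p = 0.00688) in log2 terms for Reloading against Control in edgeR, and Mef2b was not tested. The Mef2a call against Unloading was lost with library totals only. Of the 79 other tested regulators of muscle in a list of such genes, 26 were lower and 21 higher in Reloading than in Control. The background over all tested genes was 21.3% lower and 22.1% higher. With library totals only, 8 of the regulators were lower and 33 higher, where 1484 and 6028 of all 14851 tested genes were.

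**Figure D3:**
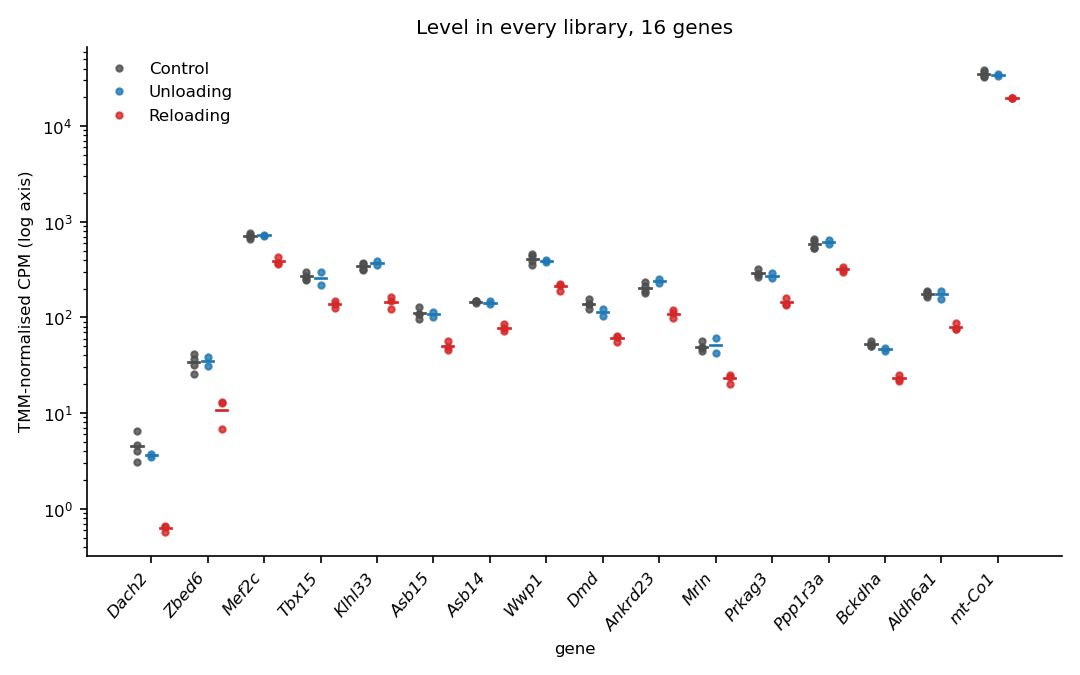
Level of 16 of the 52 genes in every library, in TMM-normalised CPM on a log axis; points are libraries (4 Control, 2 Unloading, 3 Reloading) and bars are group means. In each gene all Reloading points lie below all Control and Unloading points. Some Unloading points lie outside the Control range, and in Bckdha both lie below it.

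Protein turnover was represented by 4 substrate adaptors and ligases. Klhl33 (ENSMUSG00000090799, chromosome 14, 50888582 to 50897507), a kelch-like adaptor of cullin ligases, measured 372, 321, 317 and 361 CPM in Control, 386 and 357 in Unloading and 163, 122 and 150.3 in Reloading. The Control and Unloading values ran together, and all Reloading values lay well apart from them. The SOCS-box ankyrin repeat proteins Asb14 and Asb15 recruit substrates to a cullin ligase in muscle. Asb15 (ENSMUSG00000029685, chromosome 6, 24528144 to 24573164) measured 108, 95.6, 108 and 128 CPM in Control, 102 and 113 in Unloading and 45.3, 49.1 and 56.0 in Reloading. Asb14 (ENSMUSG00000021898, chromosome 14, 26894557 to 26915258) measured 148, 143, 149.9 and 147 CPM in Control, 148 and 138 in Unloading and 72.2, 76.8 and 86.1 in Reloading. Both genes showed tight groups, with 45.6% and 53.4% of the Control mean left. Wwp1 (ENSMUSG00000041058, chromosome 4, 19608303 to 19708993), a HECT-type ligase of the NEDD4 family, measured 463, 356, 385 and 440.2 CPM in Control, 398 and 384 in Unloading and 189.6, 225 and 217 in Reloading.

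Relatives of these genes moved in both directions. Of 9 other ASB genes listed here, 5 passed as lower and 0 as higher in Reloading against Control. Among them were Asb10 at -0.72 ± 0.08 (SE, adjusted p = 4.15e-06) and Asb2 at -0.71 ± 0.13 (SE, adjusted p = 3.72e-04) on the log2 scale in edgeR. With library totals only, 3 passed as lower and 3 as higher. Over all 14851 tested genes, 21.3% were lower and 22.1% higher against Control, and 1484 and 6028 with library totals only. Neither this list nor that of the kelch-like genes holds the whole family. Asb1 and Asb6, which are not listed, differed from Control by -0.12 and 0.37 in Reloading on the log2(CPM + 1) scale. Of 11 other kelch-like and KBTBD adaptors listed here, 6 passed as lower and 4 as higher. Klhl40, which stabilises thin filament proteins, rose by 2.67 ± 0.13 (SE, adjusted p = 1.46e-09) from 89.2 ± 11.8 CPM in Control (SD, n = 4) to 569.6 ± 107 in Reloading (SD, n = 3). Klhl41, its close relative in the sarcomere, rose by 1.17 ± 0.07 (SE, adjusted p = 1.50e-08), and Klhl30 and Klhl34 rose by 1.48 (edgeR adjusted p = 5.57e-08) and 0.76 (edgeR adjusted p = 6.79e-05). Klhl31, Klhl24, Klhl23 and Kbtbd12 fell by 0.79, 0.62, 1.12 and 0.73 on the log2 scale. Over the whole list of 44 other ubiquitin ligase genes, 21 were lower and 10 higher in Reloading against Control; with library totals only, 12 were lower and 18 higher.

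Genes of the membrane, cytoskeleton and calcium handling formed another group. Dmd (ENSMUSG00000045103, chromosome X, 82948870 to 85206141) encodes dystrophin, the rod between actin and the membrane complex. It measured 156, 122, 137 and 137 CPM in Control, 104 and 123 in Unloading and 55.8, 64.3 and 62.0 in Reloading. Unloading 1 lay below the Control range and Unloading 2 at its lower end, while all Reloading libraries lay below both. Ankrd23 (ENSMUSG00000067653, chromosome 1, 36530188 to 36536883), a titin-binding ankyrin repeat protein, measured 188, 234, 211 and 178 CPM in Control, 251 and 229.7 in Unloading and 98.1, 121 and 111 in Reloading; 78.2% of its exon bases are shared with the readthrough gene Gm42417 on the same strand. Mrln (ENSMUSG00000019933, chromosome 10, 70204664 to 70219711) encodes myoregulin, a micropeptide that restrains the sarcoplasmic reticulum calcium pump. Its levels were 44.4, 48.2, 48.6 and 56.3 CPM in Control, 42.2 and 60.4 in Unloading and 20.2, 24.1 and 24.9 in Reloading. Fxyd6, a regulatory subunit of the sodium pump, kept 46.1% of Control and 55.9% of Unloading. Actr3b, an actin-related protein of the Arp2/3 complex, went from 19.1 ± 5.64 CPM (SD, n = 4) to 9.53 ± 0.657 (SD, n = 3), with Control libraries from 13.1 to 26.3 CPM. Mpp3, a membrane scaffold of the MAGUK family, fell further, with 30.7, 32.0, 31.1 and 26.3 CPM in Control, 28.9 and 34.9 in Unloading and 10.7, 9.99 and 13.9 in Reloading.

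Partners of these proteins did not follow as one. In the dystrophin complex, of 11 other tested genes described here, 7 passed as lower and 3 as higher in Reloading against Control, and with library totals only the 7 lower calls were lost and 3 genes were higher. Utrn, the dystrophin relative of the neuromuscular junction, rose by 0.78 ± 0.10 (SE, adjusted p = 2.13e-05) in edgeR. Sntb2, a syntrophin, rose by 0.64 ± 0.12 (SE, adjusted p = 4.33e-04), and Dag1, which encodes dystroglycan, rose by 0.23 ± 0.07 (SE, adjusted p = 0.0122). The sarcoglycan genes Sgca and Sgcb fell by 0.29 and 0.37 on the log2 scale (edgeR adjusted p = 0.00527 and 3.19e-04), and both calls were lost with library totals only. Of the other 2 muscle ankyrin repeat proteins, Ankrd1 went from 7.84 ± 1.19 CPM in Control (SD, n = 4) to 282 ± 39.6 in Reloading (SD, n = 3), which is 5.16 ± 0.19 (SE, adjusted p = 7.55e-11) on the log2 scale in edgeR, and Ankrd2 rose by 3.08 ± 0.16 (SE, adjusted p = 2.23e-09). The calcium pump gene Atp2a1 differed by -0.30 on the log2 scale against Control (edgeR adjusted p = 0.00106, lost with library totals only) and by -0.64 against Unloading (edgeR adjusted p = 1.17e-05), after 0.33 in Unloading against Control (edgeR adjusted p = 0.00767, lost without Unloading 1). The sodium pump subunit gene Atp1b1 rose by 1.21 ± 0.08 (SE, adjusted p = 2.65e-08) against Control in edgeR, while Fxyd1, the main muscle FXYD subunit, fell by 0.54 (edgeR adjusted p = 5.91e-06).

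**Figure D4:**
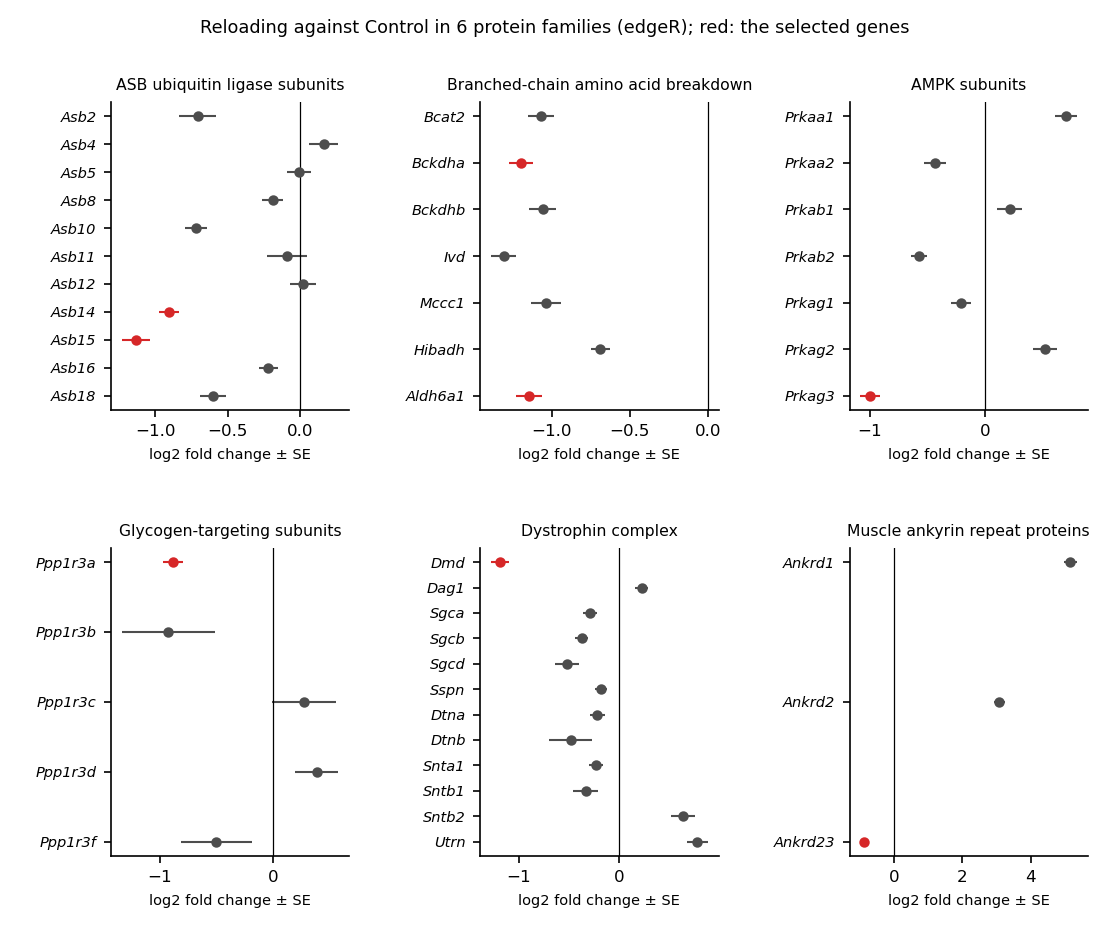
log2 fold change of Reloading against Control (edgeR, with SE bars) for the listed and tested genes of 6 protein families. Red points are among the 52 genes, chosen for low values, and dark grey points are their listed relatives. Some lists do not hold the whole family. The listed genes of branched-chain amino acid breakdown all lie left of 0, while the AMPK, dystrophin and muscle ankyrin repeat panels hold genes on both sides.

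Energy metabolism supplied 2 regulators with high levels. Prkag3 (ENSMUSG00000006542, chromosome 1, 74738922 to 74749221) encodes the gamma subunit of AMP-activated protein kinase (AMPK) found mainly in fast muscle. It measured 318, 268, 281 and 285 CPM in Control, 290.0 and 255 in Unloading and 138, 134 and 161 in Reloading. Ppp1r3a (ENSMUSG00000042717, chromosome 6, 14713977 to 14755274), which anchors protein phosphatase 1 to glycogen, measured 654, 526, 536 and 633 CPM in Control, 638 and 593 in Unloading and 299, 315 and 340.4 in Reloading. The Reloading libraries of both genes lay close together, at 50.1% and 54.2% of the Control mean. Among 6 other AMPK subunits, Prkaa2 and Prkab2, the catalytic and beta subunits abundant in muscle, fell by 0.44 and 0.58 against Control on the log2 scale (edgeR adjusted p = 0.00181 and 1.13e-05; the Prkaa2 call was lost with library totals only). Prkaa1, the other catalytic subunit, and Prkag2, another gamma subunit, rose by 0.70 ± 0.09 (SE, adjusted p = 3.03e-05) and 0.51 ± 0.10 (SE, adjusted p = 7.60e-04) in edgeR. Prkab1 and Prkag1 did not pass, at 0.21 and -0.21 (edgeR adjusted p = 0.137 and 0.067), but Prkab1 passed as higher with library totals only. None of the 4 other glycogen-targeting subunits listed here passed against Control in edgeR. Only Ppp1r3f passed as lower against Unloading (edgeR adjusted p = 0.0237), at a mean of 1.03 CPM in Control. With library totals only this call was lost. Ppp1r3d then passed as higher against Unloading and against Control (edgeR adjusted p = 0.0217 and 0.0147). Across 49 other genes of glycogen, glycolysis and sugar transport, 25 were lower and 11 higher than in Control, where 21.3% and 22.1% of all tested genes were. With library totals only, 13 were lower and 16 higher, where 1484 and 6028 of all 14851 tested genes were.

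Breakdown of branched-chain amino acids contributed Bckdha and Aldh6a1. Bckdha (ENSMUSG00000060376, chromosome 7, 25629946 to 25658981), the E1 alpha subunit of the branched-chain ketoacid dehydrogenase, measured 50.6, 53.0, 50.9 and 57.2 CPM in Control, 44.9 and 47.9 in Unloading and 24.9, 21.6 and 22.9 in Reloading. Its exons overlap B3gnt8 on the opposite strand over 61.7% of their bases, and the counting ignored strand. Aldh6a1 (ENSMUSG00000021238, chromosome 12, 84430717 to 84451004), the methylmalonate semialdehyde dehydrogenase of valine breakdown, measured 189, 163, 172 and 186 CPM in Control, 190.5 and 158 in Unloading and 76.6, 75.8 and 87.7 in Reloading, and 18.6% of its exon bases overlap Bbof1 on the opposite strand. All 5 other tested genes listed for this pathway passed as lower in both Reloading comparisons, with library totals only as well. The list does not hold the whole pathway. Hibch, which is not on it, differed from Control by -0.34 in Unloading and -0.40 in Reloading on the log2(CPM + 1) scale. Against Control, Ivd, which acts on leucine, fell by 1.31, Bcat2, the mitochondrial aminotransferase of the opening step, by 1.07, Bckdhb, the partner of Bckdha, by 1.06, Mccc1 by 1.04 and Hibadh by 0.69 on the log2 scale (largest edgeR adjusted p = 1.07e-06). In Unloading against Control, where the rule held the members within 0.3, Ivd and Bcat2 fell by 0.48 and 0.54 (edgeR adjusted p = 0.00446 and 0.00368, lost without Unloading 1), while Bckdhb and Hibadh, at adjusted p = 0.0361 and 0.0467, lost their call under several alternatives. Whether Bckdha and Aldh6a1 changed less than their relatives in Unloading was not tested.

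The mitochondrial genome gave 3 members. mt-Co1, the catalytic subunit of cytochrome oxidase, was the most abundant, with 36571, 33011, 33380 and 38501 CPM in Control, 33560 and 35363 in Unloading and 19640, 19536 and 19754 in Reloading. mt-Nd5, a proton-pumping subunit of complex I, measured 12560, 12076, 11525 and 14141 CPM in Control, 12985 and 13790 in Unloading and 7516, 6605 and 6873 in Reloading. mt-Nd6, the only protein encoded on the other strand, measured 3092, 3074, 2707 and 3196 CPM in Control, 3425 and 3688 in Unloading and 1653, 1517 and 1407 in Reloading. Its exon shares 14 bases with mt-Nd5, and reads of mitochondrial genes can also match copies in the nuclear genome. All 10 other mitochondrially encoded protein genes passed as lower against Control in edgeR, and 5 against Unloading. mt-Nd1, mt-Nd2, mt-Nd4 and mt-Cytb fell by 0.76, 0.90, 0.82 and 0.79 on the log2 scale against Unloading (largest edgeR adjusted p = 1.64e-05). In Unloading against Control, where the rule held the 3 members within 0.3, 6 of the 10 passed as lower. These were mt-Co3, mt-Co2, mt-Nd4l, mt-Nd3, mt-Atp6 and mt-Atp8, which fell by 0.76, 0.74, 0.66, 0.53, 0.46 and 0.37 on the log2 scale (largest edgeR adjusted p = 0.0442), and all 6 calls were lost without Unloading 1. RNA was selected by its poly(A) tail, and how that bears on mitochondrial transcripts was not tested.

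Signalling, secreted and receptor genes were mostly at lower levels. Rps6ka5, the stress- and mitogen-activated kinase MSK1, measured 14.0, 12.2, 13.8 and 13.1 CPM in Control, 16.4 and 16.0 in Unloading and 6.05, 5.28 and 4.97 in Reloading, with both Unloading libraries above every Control library. Cdk19, a kinase of the Mediator complex, kept 53.4% of Control, Ccng2, a cyclin that restrains division, 54.2%, and Ramp1, a partner of the calcitonin gene-related peptide receptor, 46.8%. The Reloading values of Ramp1 were 19.4, 19.5 and 19.8 CPM. Ctf1, the cytokine cardiotrophin, went from 7.22 ± 0.418 CPM (SD, n = 4) to 3.14 ± 0.639 (SD, n = 3). The Wnt antagonist Dkk2 measured 9.02, 6.63, 5.07 and 7.81 CPM in Control, 9.27 and 7.53 in Unloading and 4.20, 4.70 and 2.05 in Reloading, so that Reloading 2 came close to Control 3. Dact2, a Dapper-family regulator of Wnt and TGF-beta signalling, kept 28.7% of a Control mean of 3.15 CPM. In function lists that hold members, of 64 other kinase, phosphatase and cyclic nucleotide genes 22 were lower and 14 higher than in Control. Over all tested genes, 21.3% were lower and 22.1% higher. With library totals only, 16 of the 64 were lower and 23 higher, where 1484 and 6028 of all 14851 tested genes were.

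Enzymes and transporters of lipids and small molecules followed. Gpcpd1, which releases glycerol 3-phosphate from glycerophosphocholine, was the most abundant of them, at 563, 479, 512 and 597 CPM in Control, 614 and 585 in Unloading and 252, 264 and 322 in Reloading. Cyp27a1, the sterol 27-hydroxylase, kept 55.5% of Control and 47.2% of Unloading, and Xpr1, the phosphate exporter, 55.8% and 46.8%. Dglucy, the D-glutamate cyclase, measured 18.7, 18.6, 18.7 and 22.0 CPM in Control, 24.8 and 22.5 in Unloading and 5.97, 8.25 and 10.7 in Reloading, a fall to 35.1% of the Unloading level. Percentages of the Control level left in Reloading were 50.8% for Plaat1, a phospholipase and acyltransferase, 44.0% for Hnmt, which methylates histamine, 54.3% for the dihydrodiol dehydrogenase Dhdh, 49.1% for Selenbp1, 49.1% for Eepd1 and 44.2% for Slc15a5 of the peptide transporter family. Amy1, an amylase with near-identical copies and 32.7% of its exon bases shared with Rnpc3, measured 43.1, 29.7, 32.8 and 40.0 CPM in Control, 39.2 and 40.4 in Unloading and 12.2, 16.3 and 18.1 in Reloading.

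The remaining members serve the genome, the cilium, mitochondria or functions that are less clear. Rev3l, the catalytic subunit of DNA polymerase zeta, measured 56.5, 43.8, 72.5 and 97.6 CPM in Control, 90.1 and 48.1 in Unloading and 21.8, 30.5 and 33.3 in Reloading, a wide spread in which Control 2 and Unloading 2 came nearest to Reloading. Hmgn5, a nucleosome-binding protein, kept 50.7% of Control, Cep290, a protein of the ciliary transition zone, 47.4%, and Gdap1, a mitochondrial outer membrane protein, 52.0%. The methyltransferase-related genes Mettl11b and Pcmtd1 kept 49.7% and 52.1%. Ankrd9, an ankyrin repeat protein, measured 95.0, 104, 103 and 123 CPM in Control, 133 and 109.9 in Unloading and 44.5, 48.1 and 73.9 in Reloading, where Reloading 3 stood above its group. Crip3, a LIM domain protein, measured 3.04, 3.07, 3.36 and 3.60 CPM in Control, 3.44 and 3.00 in Unloading and 0.726, 2.17 and 0.861 in Reloading, and its Reloading mean rests on low counts. D3Ertd751e kept 47.9% and Gm38393 28.6% of Control. Gm38393 lies within the imprinted Snrpn and Snhg14 region and shares 11.3% of its exon bases with Snrpn on the same strand; Snrpn and Snhg14 themselves changed by -0.97 ± 0.09 (SE, adjusted p = 1.42e-06) and -1.22 ± 0.14 (SE, adjusted p = 7.56e-06) against Control in edgeR.

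Gm4841, an interferon-inducible GTPase-like gene with close paralogues, met the rule through its group means. It measured 16.4, 7.79, 89.3 and 8.24 CPM in Control, 9.49 and 24.4 in Unloading and 6.78, 6.01 and 6.16 in Reloading. Control 3 was more than 5 times the next Control library, and Control 2 and Control 4 lay just above Reloading. It was the 1 member that did not pass against Unloading (edgeR adjusted p = 0.188). It met the rule in 4 of the 9 sets with 1 library left out, the fewest of any member. Leaving out Control 2, Control 3, Control 4 or either Unloading library removed it.

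Each library was also set against genes chosen without it. The rule was applied to the other 8 libraries, with the scale and count filter of all 9 kept, and the left-out library was measured against group means of the libraries that had chosen the genes, so only 1 side of each difference is free of the choice. With a library of Control or Unloading left out, every chosen gene lay above the Reloading mean in it, and with a Reloading library left out every chosen gene lay below the Control and Unloading means. The fall limit of 0.8 was also passed in the left-out library by 42 of 53 genes for Reloading 1 (79.2%), 38 of 59 for Reloading 2 (64.4%) and 33 of 72 for Reloading 3 (45.8%). The median fall of the chosen genes was 0.96 in Reloading 1 when it was left out, 0.89 in Reloading 2 and 0.78 in Reloading 3, so Reloading 3 showed the pattern at a smaller size. For the Control libraries the share past the limit ran from 51.8% (Control 2, 29 of 56) to 92% (Control 1, 46 of 50), and it was 60.6% for Unloading 1 (43 of 71) and 76.1% for Unloading 2 (35 of 46). When filter and scale were instead computed anew without each library, 24 of the 52 genes met the rule in all 9 sets. Each of the 52 met it in at least 4. The members just inside the limit were mt-Co1, Fxyd6, Ccng2, Dkk2 and Xpr1, whose smaller fall was 0.81, 0.82, 0.83, 0.83 and 0.83. Just outside lay Sesn3, Plcd4, mt-Nd4, Smim10l1 and Fyco1, with smaller falls of 0.80, 0.80, 0.79, 0.79 and 0.79.

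Of the settings tried at the same limits, the scaling moved membership most. Scaled by library totals alone, all tested genes together had a median difference of 0.27 (log2) against Unloading and 0.25 against Control, where TMM left 0.03 and 0.01, and 82.8% and 80.2% of the calls were higher in Reloading, compared with 49.3% and 50.9%. All 52 genes stayed lower in Reloading under this scaling, with a median of -0.75 against both Unloading and Control on the log2(CPM + 1) scale where TMM gave -0.97 and -0.97, but 16 still met the limits. These were Zbed6, Dach2, Mpp3, Gm38393, Klhl33, Amy1, Dglucy, Rev3l, Rps6ka5, Gm4841, Aldh6a1, Tfcp2l1, Asb15, Mrln, Zfp971 and Crip3. Leaving out 1 library kept between 36 and 50 of the 52 genes, with the fewest kept without Unloading 2.

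**Figure D5:**
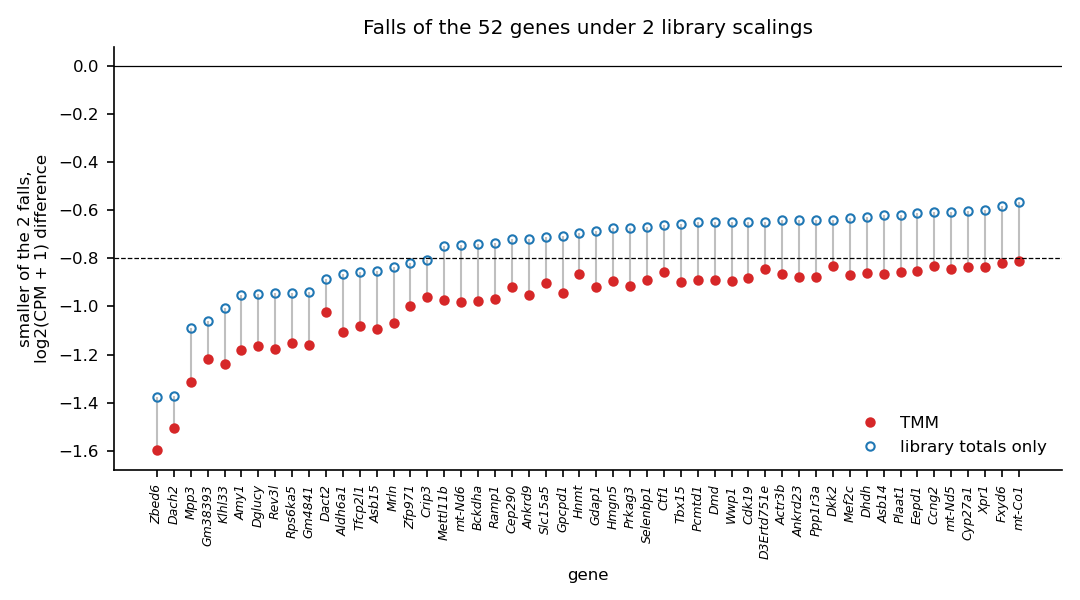
For each of the 52 genes, the smaller of the falls against Control and Unloading in log2(CPM + 1), with TMM (filled) and with library totals only (open); the dashed line is the limit of -0.8. All open points lie above their filled partners and below 0. Dact2 has its open point below the line but missed the limit on the Control level.

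Markers of other cells moved as well. Summed muscle fibre markers were 149573 to 162814 CPM in Control, 156018 to 160694 in Unloading and 110236 to 122478 in Reloading, with 6 of 8 genes lower against Unloading. Macrophage markers summed to 64.4 to 78.9 CPM in Control, 66.8 to 68.0 in Unloading and 142 to 160 in Reloading, with 7 of 7 genes higher against Unloading. Fibro-adipogenic cell markers summed to 961 to 1172 CPM in Control, 1470 to 1533 in Unloading and 974 to 995 in Reloading, with 3 of 7 genes lower and 1 higher against Unloading. Against Unloading, endothelial markers rose for 5 of 7 genes (333 to 385 CPM in Control, 492 to 576 in Reloading), smooth muscle and pericyte markers for 6 of 7 (the other fell), Schwann cell markers for 4 of 6 and tenocyte markers for 4 of 5, and satellite cell and adipocyte markers for 1 of 5 each, while 0 of 2 tested neutrophil markers passed in edgeR. Over all tested genes, 19.0% were lower and 18.5% higher against Unloading. All marker sums and calls used TMM, and they were not counted with library totals only. No marker of these lists was at 0 in all libraries, and the part of cell composition in the falls of the 52 genes was not tested.

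By position, 10 members (19.2%) lie on chromosome 1, compared with 5.78% of the comparable genes, and 4 (7.69%) on chromosome 12, compared with 3.50%; 3 are on the X chromosome. Cyp27a1 and Prkag3 are direct neighbours on chromosome 1, tail to tail and 1030 bases apart. Rps6ka5 and Dglucy lie 52074 bases apart on chromosome 12 with 1 tested gene between them, and Rev3l and Cdk19 464353 bases apart on chromosome 10 with 9. The members' exons summed to a median of 3726 bases (comparable genes 4764), their span to 29976 bases (25449) and their merged exons to 9 (10), and the span reached 2257272 bases in Dmd. Exons of 18 members overlap another gene, and for 6 the overlap exceeds 10% of their exon bases.

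Lists of genes with related roles put these members among their neighbours. Of 27 other genes of excitation-contraction coupling, 19 were lower and 2 higher in Reloading than in Control, and 13 lower and 2 higher than in Unloading; with library totals only, 9 were lower and 4 higher than in Control, and 6 lower and 9 higher than in Unloading. Of 52 other ion channel and transporter genes 24 were lower and 16 higher than in Control (14 and 21 with library totals only), of 53 other sarcomere genes 21 and 20 (14 and 25), and of 32 other costamere genes 12 and 13 (3 and 16). Of 59 receptor genes 25 were lower and 9 higher than in Control (14 and 19), of 33 genes of mitochondrial dynamics 24 and 2 (17 and 6), and of 23 neuromuscular junction genes 3 and 9 (0 and 16). Of 31 other genes of nucleotide, creatine and amino acid metabolism 19 were lower and 6 higher (13 and 6), and of 58 fatty acid genes 24 and 12 (17 and 17). Of 23 circadian genes 6 were lower and 8 higher than in Control, and 14 lower and 4 higher than in Unloading (4 and 12, and 5 and 7, with library totals only). Over all 639 tested genes of these lists, members included, 284 were lower and 152 higher against Control in edgeR, 244 and 132 against Unloading, and 91 and 55 in Unloading against Control. With library totals only the balance of both Reloading comparisons turned. It gave 167 lower and 231 higher against Control, 120 and 228 against Unloading, and 98 and 53 in Unloading against Control. Over all 14851 tested genes, TMM gave 3169 lower and 3287 higher against Control, and 2819 and 2743 against Unloading. Library totals only gave 1484 and 6028, and 1090 and 5250, so the calls of all tested genes shifted upward too.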

How the data were processed

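The authors aligned polyadenylated-RNA reads with STAR 2.7.3a to mouse build GRCm38.p6 and used featureCounts 2.0.3 without strand to count the read pairs of each gene of Ensembl release 102. The deposited table holds raw counts for 55487 genes in 4 Control, 2 Unloading and 3 Reloading libraries. The authors' tables of the 3 comparisons also hold fold changes and p-values, which were not used here; only their gene symbols, biotypes and transcription factor annotation were. The study's methods describe single reads, whereas the labels and the table state read pairs.

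Members and gene lists were chosen with earlier results of these data known. Families (ASB, kelch-like, MEF2, AMPK and the like) were taken as relatives of the members. Every member is named, with the genes just outside the limit, listed relatives and overlapping genes; some relatives are not reported here. The rule used TMM-scaled CPM of edgeR 4.0.16 in R 4.3.3 and a pseudocount of 1. For tests, filterByExpr (count of at least 10, total of at least 15) left 14851 genes, and a quasi-likelihood model with group as its term was fitted to all 9 libraries together. Tests were two-sided F-tests with Benjamini-Hochberg adjustment within each comparison and a threshold of 0.05. SE were derived from the F statistic, and edgeR's default prior count was kept. A single count equals 0.0546 to 0.113 CPM, which sets the precision of low genes. Fit and rule were tested on simulated data. Alternatives were other scalings, pseudocounts, filters, limits, medians, replicate blocks, left-out libraries and DESeq2 1.42.0. Coordinates are GRCm38 positions of the count table. Replicate numbers were not used as pairs in the main fit, and whether they mark paired samples is not known.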

Additional observations from a re-analysis of the deposited data

Results flagged for a closer look

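In 4 of the 52 genes, 1 Control library stood apart from the other 3 by Dixon's test, which chance alone gives in about 1 of 20 groups. Gm4841 measured 89.3 CPM in Control 3, compared with 7.79 to 16.4 CPM in the other Control libraries. Dglucy measured 22.0 CPM in Control 4, compared with 18.6 to 18.7 CPM. Mettl11b measured 25.9 CPM in Control 2, compared with 30 to 30.4 CPM. Xpr1 measured 124 CPM in Control 4, compared with 111 CPM in each of the others. For Dglucy, Mettl11b and Xpr1 every Control library, the distant one included, lay above all Reloading libraries by more than the distance among the Control libraries.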

How the results depend on the processing

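The 52 genes became 16 with library totals only, 15 with a fall of 1 or more and 210 with a fall of 0.6 or more, and 40 to 64 under the other scalings, pseudocounts, filters, band and medians. Leaving out 1 library, with filter and scale computed anew, gave 47 to 72 genes. Members passing as lower numbered 51 to 52 against Unloading and 51 to 52 against Control in every fit that kept both Unloading libraries. All 884 log2 fold changes of each Reloading comparison under the 17 other fits were negative. The rule chose the members on these comparisons, so nothing is read from this. In Unloading against Control, 0 members passed, but 5 did with every gene that had a count (Ankrd23, Cyp27a1, Gm4841, mt-Nd6 and Xpr1), 3 with a replicate block by the numbers in the sample descriptions (Dglucy, Tfcp2l1 and Xpr1), 2 without Control 2 and Reloading 1 (Ankrd23 and Dmd), 1 with DESeq2's Wald test (mt-Nd6), and 0 to 1 with 1 library left out (Fxyd6 without Control 1, Dmd without Control 2). The cause was not tested.

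Over all genes, Unloading against Control gave 1470 calls, 121 without Unloading 1, 949 without Control 3 and at most 1518 with 1 library left out; the function lists gave 146, and 32 to 149 with 1 library left out, the fewest without Unloading 1. A left-out Unloading library leaves a lone one, which is assumed to vary like the other groups. Of 1683 values of the other named genes under alternatives, 1599 kept their call, 84 missed the threshold and 0 turned direction. After each gene's group mean was subtracted, the deviations of same-numbered libraries correlated at -0.16 to 0.19 by title number. By description number they correlated at 0.07 to 0.20. With 2 Unloading libraries these deviations are mirror images, so values with Unloading say little about pairing. The block by title number gave 5108, 5705 and 1042 calls against 5562, 6456 and 1470 without it (Reloading against Unloading, Reloading against Control, Unloading against Control), and 52, 52 and 0 members; the block by description number gave 4902, 6632 and 1479, and 52, 52 and 3 members. The lowest count of a member, 7, was that of Dach2 in Reloading 1.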
